A study of Homo sapiens with 18 samples.

Results

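The genes described here are the VEGF-type ligands VEGFA, VEGFB, VEGFC and PGF, the receptors KDR and FLT1, the co-receptors NRP1 and NRP2, and the angiopoietins ANGPT1 and ANGPT2. They are 10 of the 58336 gene identifiers in the deposited count tables and were taken by symbol. Measured values entered their choice at one point, the opposite direction of PGF in A673 and TC-71, so PGF in those lines is described without a test. The RNA came from TC-32, TC-71 and A673, 3 established lines of Ewing sarcoma, which arises in bone or soft tissue. Each line was given siFLI1, a small interfering RNA against FLI1, or the negative control siNeg, both by reverse transfection at 20 nM, with 3 libraries per siRNA and line and 18 in all. The lines carry a fusion of EWSR1 to FLI1, whose transcript ends in FLI1 sequence. TC-32 and TC-71 were grown in RPMI medium and A673 in DMEM, and the column names give 48 h for TC-32 and TC-71 and no time for A673. The series text also names the line ES-5838 and the siRNA siERG, which are not analysed here. Each line is one tumour culture with no vessels around it, and nothing states that the 3 replicates of a group were separate cultures, so p-values measure the spread between these libraries, which may be technical.

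VEGF ligands are secreted dimers that bind receptor tyrosine kinases on blood and lymph vessel endothelium and drive the growth of vessels. KDR, also called VEGFR2, carries most of the growth signal of VEGFA, whereas FLT1, or VEGFR1, binds VEGFA, VEGFB and PGF tightly and signals weakly. The neuropilins hold VEGF ligands and class 3 semaphorins at the cell surface, and the angiopoietins act on the separate receptor TEK (TIE2) to steady or loosen vessels. The EWSR1-FLI1 protein binds runs of the sequence GGAA and activates some genes near them while others are repressed when it is present.

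A library held 114564479 to 120993595 counts in A673, 24102487 to 33669271 in TC-32 and 19685354 to 37234528 in TC-71, so low levels are measured best in A673. FLI1 itself was lower after siFLI1 in every line, most in A673 (log2 fold change -2.09), then TC-71 (-1.47) and TC-32 (-1.03), with an edgeR adjusted p of at most 1.85e-13. Of 7 markers of Ewing sarcoma cells, the siRNA target FLI1 included, 7 were lower in TC-32 and 7 in A673, and 6 of the 6 tested were lower in TC-71, where CD99 is listed at 0, which is not read as absence. Over all genes tested, 40.1% were called lower in TC-32, 35.4% in A673 and 35% in TC-71. Endothelial cells are the usual source of KDR and FLT1, and 9 markers of that cell type summed to 3.32 to 3.85 CPM (counts scaled to library size by the TMM method) in the TC-32 siNeg libraries and 5.41 to 7.47 in siFLI1. Their sum was 6.34 to 6.94 and 6.20 to 7.04 CPM in TC-71, and 31.9 to 33.2 and 17.6 to 18.4 CPM in A673, where EMCN made up most of it. Of these 9 markers, edgeR called CDH5, ESAM and TEK higher and PECAM1 lower in TC-32. In A673, CDH5, TEK, VWF and ROBO4 were called higher and PECAM1 and EMCN lower. In TC-71, EMCN was called higher and CLDN5 lower. CDH5 and ESAM in TC-32, TEK, VWF and ROBO4 in A673, and EMCN in TC-71 passed the low-count filter through their siFLI1 libraries alone. A rise of those was built into being tested. PECAM1 in TC-32 passed it in all siNeg libraries but not in all siFLI1 libraries. CDH5, the cadherin of endothelial junctions, went from a mean of 0.281 to 1.39 CPM in TC-32 and from 0.378 to 1.58 CPM in A673, and TEK from 0.628 to 2.08 CPM and from 0.0442 to 0.687 CPM. ESAM went from 0.165 to 1.49 CPM in TC-32 and ROBO4 from 0.0139 to 0.587 CPM in A673. TIE1 had 0 counts in all 9 siNeg libraries and 2 to 7 counts in each of the 9 siFLI1 libraries, and VWF was at or below a mean of 0.156 CPM in all 6 groups. Among 3 blood and pericyte markers, PTPRC was at or below a mean of 0.0639 CPM in all 6 groups. CD34 is carried by blood stem cells and endothelium. Its mean went from 0.245 to 18.2 CPM in TC-32 (edgeR adjusted p = 1.37e-20). The A673 means were 0.0139 CPM for siNeg and 0.259 CPM for siFLI1 (edgeR adjusted p = 2.27e-05), with 0 counts in TC-71. CD34 siNeg libraries held 5, 5 and 8 counts in TC-32 and 4, 0 and 1 in A673. In both lines CD34 passed the low-count filter through siFLI1 alone, so its rise was built into being tested. The pericyte marker RGS5 fell from 50.9 to 26.0 CPM in TC-32 and rose from 24.3 to 62.9 CPM in A673 and from 3.25 to 4.22 CPM in TC-71 (edgeR adjusted p at most 0.0341). In bulk RNA, fewer cells carrying a transcript and less of it per cell cannot be told apart.

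Across the 9 genes other than PGF, edgeR's quasi-likelihood test called 8 of 9 in TC-32 (7 higher and 1 lower after siFLI1), 5 of the 6 tested in TC-71 (4 higher and 1 lower) and 9 of 9 in A673 (7 higher and 2 lower) at an adjusted p under 0.05. Over all genes tested, the share called was 81.4% in TC-32 (41.3% higher and 40.1% lower), 71% in A673 (35.6% and 35.4%) and 71.9% in TC-71 (36.8% and 35%). The siNeg and siFLI1 libraries did not overlap for 8 of these 9 genes in TC-32, 9 of 9 in A673 and 5 of the 6 tested in TC-71, beside 82.6%, 73.6% and 73.8% of all genes tested. Changes past the threshold were therefore the rule in every line, and nothing is read from these counts. For these genes the median log2 fold change was 3.30 (TC-32), 2.26 (A673) and 1.60 (TC-71), beside 0.022, -0.0066 and 0.018 over all genes tested. VEGFC in all 3 lines, and FLT1 and ANGPT2 in TC-32, passed the low-count filter through their siFLI1 libraries alone, so a rise there was built into being tested. Without them, 4 genes were higher and 1 lower of 6 in TC-32 (median 2.17), 6 higher and 2 lower of 8 in A673 (1.79), and 3 higher and 1 lower of 5 in TC-71 (0.73). With library size as the sole scaling, the median of all A673 genes was -0.11. The split of A673 calls went from 6565 higher and 6531 lower to 5488 and 7929. None of the 9 genes other than PGF, nor PGF in TC-32, changed direction or call within a line under this scaling.

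**Figure D1:**
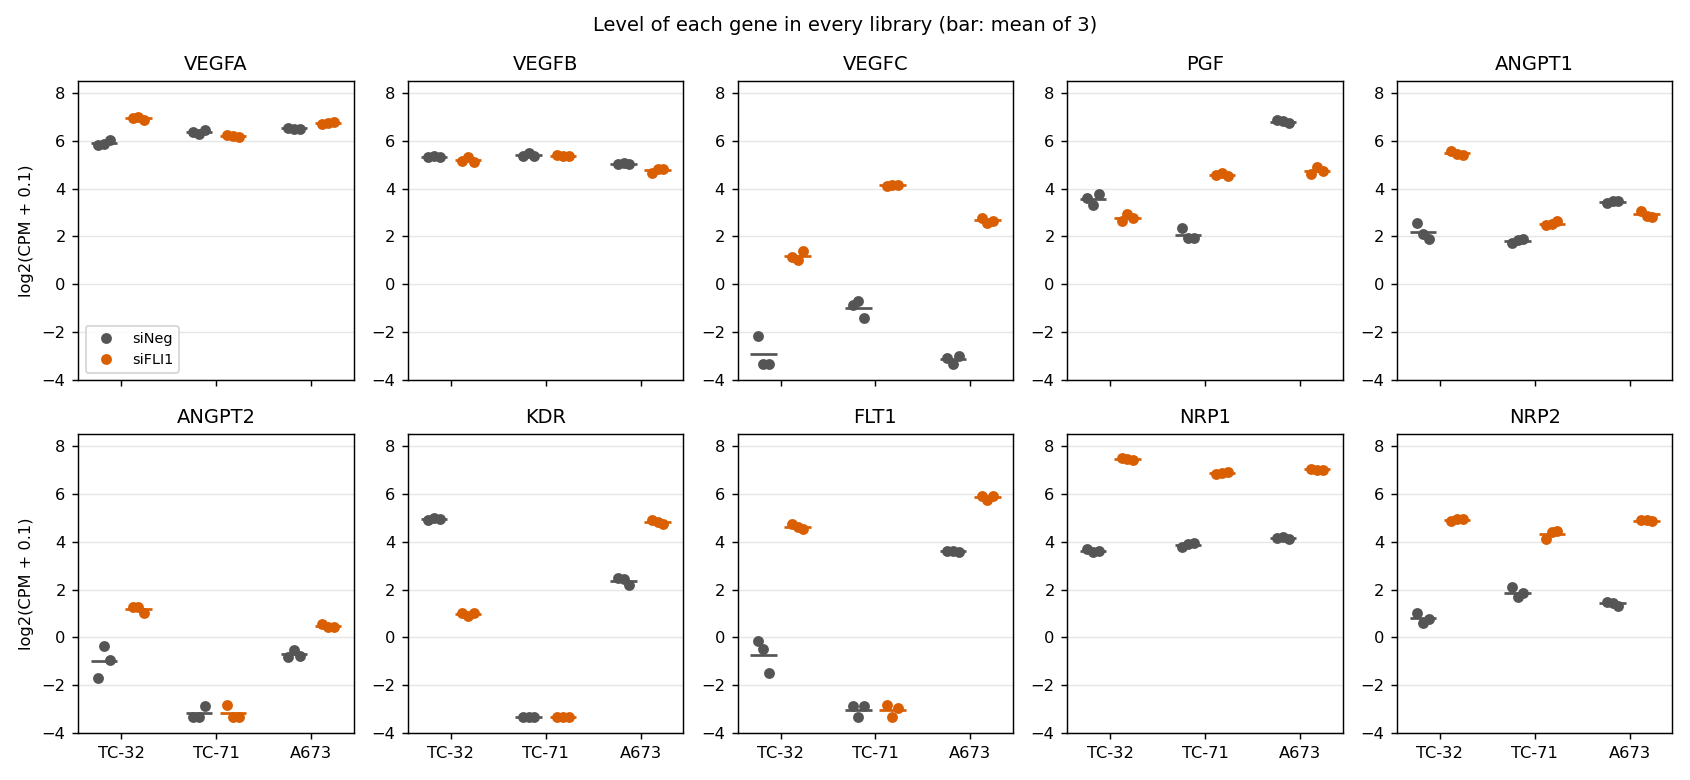
Level of each of the 10 genes in every library, as log2 of CPM plus 0.1, by line on the horizontal axis, with siNeg in grey, siFLI1 in orange and a bar at the mean of 3 libraries. The siFLI1 points lie above the siNeg points for NRP1, NRP2 and VEGFC in all 3 lines, while KDR and PGF lie on different sides in different lines.

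Near the start sites, the longest runs of GGAA were those of PGF, FLT1 and NRP1, and they are shown because such runs are the known binding sequence of the fusion. Runs of at least 4 repeats on either strand were searched within 50000 bases of each start in hg38, where 33.4% of 20033 protein-coding genes have one and 9.95% have one of at least 10 repeats. PGF has 14 repeats at position -16565 from its start, upstream and between PGF and EIF2B2 (chr14:74972136-74972191). FLT1 has 12 repeats in its own intron, 21365 bases downstream of the start (chr13:28473733-28473780). NRP1 has 6 repeats in its own intron, 22305 bases downstream of the start (chr10:33313934-33313957). VEGFA, VEGFB, VEGFC, ANGPT1, ANGPT2, KDR and NRP2 have none in that window. Each run is printed 5′ to 3′ on the strand that reads GGAA, with the run in capitals and 20 bases on each side. That strand is plus for FLT1 and minus for NRP1 and PGF, and all 3 genes lie on the minus strand.
PGF upstream run (chr14:74972116-74972211): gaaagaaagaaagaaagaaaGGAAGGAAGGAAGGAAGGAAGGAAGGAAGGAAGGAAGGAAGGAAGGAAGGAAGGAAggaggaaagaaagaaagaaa
FLT1 intron run (chr13:28473713-28473800): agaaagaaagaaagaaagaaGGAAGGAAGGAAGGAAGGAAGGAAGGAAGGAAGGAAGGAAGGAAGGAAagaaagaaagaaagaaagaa
NRP1 intron run (chr10:33313914-33313977): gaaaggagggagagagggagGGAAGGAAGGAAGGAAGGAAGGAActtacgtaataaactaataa
The PGF and FLT1 runs sit inside longer stretches of GAAA-type repeat, and the NRP1 run ends in unique sequence on one side. A match is a description of the reference genome, and binding was not measured here.

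VEGFA, the main growth signal for vessels, rose 2.06-fold in TC-32 and moved little in the other lines. VEGFA (ENSG00000112715.21, chromosome 6, 43770184 to 43786487) stood at 56.1, 58.2 and 65.6 CPM in the TC-32 siNeg libraries and at 123, 128 and 118 CPM in siFLI1. All siFLI1 libraries lay above all siNeg libraries, and the log2 fold change was 1.04 (SE 0.0562, edgeR adjusted p = 1.50e-14). In A673, the levels were 93.5, 90.1 and 91.2 CPM in siNeg and 104, 108 and 110 CPM in siFLI1. Here too the groups did not overlap, but the rise was 1.17-fold (0.23, SE 0.0386, edgeR adjusted p = 5.30e-05). TC-71 went the other way, from 81.8, 78.5 and 88.3 CPM to 75.4, 73.4 and 72.1 CPM. That fall was small, without overlap, at -0.17 on the log2 scale (SE 0.0519, edgeR adjusted p = 0.00395). The effect of siFLI1 on VEGFA differed between each pair of lines, by 1.21 on the log2 scale between TC-32 and TC-71 (edgeR adjusted p = 1.27e-15) and by 0.83 between TC-32 and A673 (2.70e-12). Between A673 and TC-71 the difference was 0.37 (edgeR adjusted p = 4.12e-05).

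VEGFB, a ligand of FLT1 and the neuropilins, moved little in any line. VEGFB (ENSG00000173511.9, chromosome 11, 64234584 to 64239264) had siNeg levels of 39.6, 41.0 and 40.1 CPM in TC-32 against 35.3, 39.8 and 34.4 CPM in siFLI1. One siFLI1 library reached the siNeg range, and the difference missed the threshold (log2 fold change -0.14, 95% interval -0.27 to -0.01, edgeR adjusted p = 0.0507). The TC-71 libraries overlapped as well, at 41.7, 44.9 and 41.5 CPM in siNeg and 42.5, 40.8 and 40.5 CPM in siFLI1 (-0.05, 95% interval -0.17 to 0.07, edgeR adjusted p = 0.477). In A673 it fell without overlap from 32.1, 33.1 and 32.6 CPM to 25.1, 28.2 and 28.3 CPM (-0.26, SE 0.0507, edgeR adjusted p = 0.000246). The TC-32 value passed the threshold without siFLI1 replicate 2 (-0.21, edgeR adjusted p = 0.00289) and with no low-count filter (-0.16, 0.0276).

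VEGFC, the growth factor of lymph vessels that acts through FLT4 and KDR, rose in all 3 lines from a level at or near 0. VEGFC (ENSG00000150630.3, chromosome 4, 176683538 to 176792922) had 3, 0 and 0 counts in the TC-32 siNeg libraries and 54, 65 and 75 counts in siFLI1. Scaled to depth, the summed counts differed 53.7-fold (95% exact interval 18.1 to 263, for counting error only, and edgeR adjusted p = 3.28e-10). The deeper A673 libraries held 2, 0 and 3 counts in siNeg and 790, 678 and 712 in siFLI1, a ratio of 453 (193.7 to 1396, edgeR adjusted p = 6.99e-15). TC-71 had a measurable siNeg level of 0.446, 0.507 and 0.278 CPM, and each siFLI1 library reached 17.4 CPM. The rise in TC-71 was 42.4-fold (log2 fold change 5.43, SE 0.163, edgeR adjusted p = 1.96e-22). In every line VEGFC reached the test through siFLI1 libraries alone. After siFLI1 the level was 2.18 ± 0.318 CPM in TC-32, 6.27 ± 0.477 in A673 and 17.4 ± 0.00652 in TC-71 (SD, n = 3 each). These levels come from separately counted tables and were not tested against each other.

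PGF, placental growth factor, binds FLT1 but not KDR, and its siFLI1 libraries lay below siNeg in TC-32 and A673 and above siNeg in TC-71. PGF (ENSG00000119630.13, chromosome 14, 74941834 to 74955626) stood at 116, 112 and 107 CPM in the A673 siNeg libraries and at 24.3, 30.0 and 26.4 CPM in siFLI1. The A673 groups lie far apart, and the log2 fold change was -2.05. In TC-71 the levels were 4.98, 3.75 and 3.71 CPM in siNeg and 23.4, 25.2 and 22.7 CPM in siFLI1. The order is the reverse of that in A673, again with no overlap, and the log2 fold change was 2.51. The siFLI1 levels of A673 (26.9 ± 2.88 CPM, SD, n = 3) and TC-71 (23.8 ± 1.33) lay close to each other, while their siNeg levels were 112 ± 4.33 and 4.15 ± 0.718 CPM, in tables counted separately. TC-32, whose value did not enter the choice of genes, went from 12.1, 9.84 and 13.6 CPM to 6.09, 7.57 and 6.70 CPM. There it fell by 0.79 on the log2 scale without overlap (SE 0.116, edgeR adjusted p = 1.67e-06). PGF shares no exon bases with another gene. RefSeq lists 2 start sites in GRCh38.p14, and the 250 bases before the more distant one are printed on the gene's strand (minus, chr14:74955765-74956014), since this is the gene whose direction split the lines. Capitals mark GGAA or its reverse complement TTCC.
PGF promoter: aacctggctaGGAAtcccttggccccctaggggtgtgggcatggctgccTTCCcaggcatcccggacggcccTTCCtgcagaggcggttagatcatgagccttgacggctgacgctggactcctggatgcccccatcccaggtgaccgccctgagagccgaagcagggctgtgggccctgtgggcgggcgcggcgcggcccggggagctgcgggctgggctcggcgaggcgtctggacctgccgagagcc
The core GGAA occurs on one strand or the other in 95.5% of 35116 RefSeq promoters of 300 bases, so its 3 occurrences here are common ones. Neither GGAAGGAA (in 3.67% of promoters), CCGGAAGT (4.14%) nor ACGTG (21.4%), the core of the hypoxia response element, was found in the PGF windows or in those of NRP2, KDR, VEGFC, VEGFB and FLT1.

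Set per kilobase of the Ensembl canonical transcript, which allows genes to be compared, the make-up of the 4 ligand transcripts shifted differently in each line. In A673 siNeg, PGF made up 59.7% ± 0.850 (SD, n = 3) of the ligand transcripts and VEGFA 23.6% ± 0.452. After siFLI1, PGF was 24.5% ± 1.63 and VEGFA 47.2% ± 1.26. TC-71 started with VEGFA at 46.7% and VEGFB at 48.1%, with PGF at 4.85%, and after siFLI1 PGF held 21.1% and VEGFC 11.9%. In TC-32 the share of VEGFA went from 36.3% to 57.7% and that of PGF from 14.8% to 6.58%, with VEGFC at 1.64% after siFLI1. These shares depend on the length used: by the length of all annotated exons, PGF in A673 held 45.7% and then 16.4%, and VEGFB was the largest in every group but A673 siNeg.

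**Figure D2:**
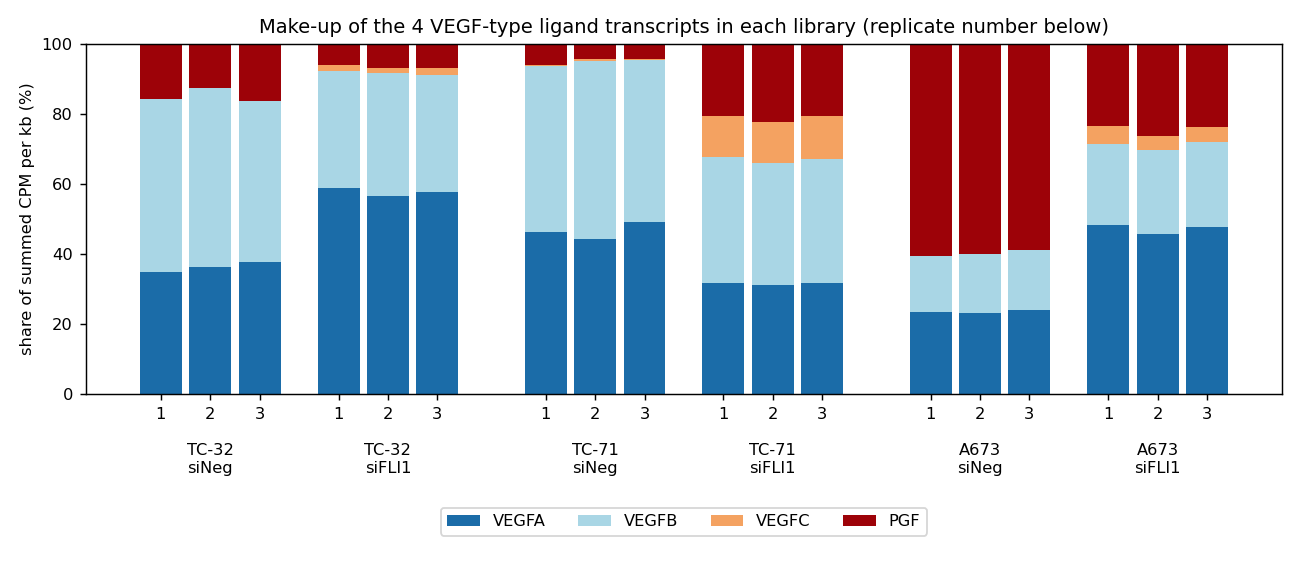
Share of each of the 4 ligands in their summed CPM per kilobase (percent, vertical axis) in each of the 18 libraries, by line, siRNA and replicate number. PGF takes 59.7% of the A673 siNeg libraries and 24.5% of the A673 siFLI1 libraries on average, and it goes from 4.85% to 21.1% in TC-71.

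The receptors KDR and FLT1 moved in opposite directions in TC-32, rose together in A673 and were at or near 0 in TC-71. KDR (ENSG00000128052.9, chromosome 4, 55078481 to 55125595) stood at 30.3, 31.6 and 30.5 CPM in TC-32 siNeg and at 1.92, 1.75 and 1.93 CPM in siFLI1. All siFLI1 libraries were far below siNeg, and the level was 16.5-fold lower (log2 fold change -4.05, SE 0.0996, edgeR adjusted p = 1.50e-21). In A673 it was 5.45, 5.30 and 4.51 CPM in siNeg and 29.9, 27.9 and 26.4 CPM in siFLI1. There it rose 5.51-fold without overlap (2.46, SE 0.0717, edgeR adjusted p = 2.30e-14). The effect on KDR differed by -6.49 on the log2 scale between TC-32 and A673 (95% interval -6.75 to -6.22, edgeR adjusted p = 6.42e-27). All 6 TC-71 libraries had 0 KDR counts, which allows up to 0.122 CPM in siNeg and 0.106 CPM in siFLI1 by a floor of 3 counts per library. 

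FLT1 (ENSG00000102755.11, chromosome 13, 28300346 to 28495145) had 0.796, 0.603 and 0.253 CPM in TC-32 siNeg and 26.9, 24.2 and 22.9 CPM in siFLI1. The siNeg libraries rest on 6 to 19 counts, and the siFLI1 libraries on 678 to 816, which alone carried FLT1 past the filter in TC-32. The rise was 44.8-fold (log2 fold change 5.47, SE 0.166, edgeR adjusted p = 7.24e-19). A673 already carried 12.2, 12.2 and 11.8 CPM in siNeg and reached 59.5, 54.2 and 59.9 CPM in siFLI1. That rise was 4.79-fold (2.26, SE 0.0506, edgeR adjusted p = 7.80e-16), and the TC-32 log2 fold change was larger by 3.24 (edgeR adjusted p = 2.36e-16). TC-71 libraries held at most 1 count of FLT1, so no change was detectable there at this depth. Per kilobase, TC-32 siNeg had 5.28 ± 0.123 CPM of KDR and 0.0773 ± 0.0387 of FLT1, and TC-32 siFLI1 had 0.320 ± 0.0168 of KDR and 3.47 ± 0.281 of FLT1 (SD, n = 3 each). The receptor with the higher level was thus KDR before and FLT1 after siFLI1 in TC-32. In A673 siFLI1 it was FLT1 by this length (8.12 ± 0.446 against 4.81 ± 0.307), but by the length of all exons FLT1 (4.60 ± 0.253) and KDR (4.43 ± 0.282) overlapped. The summed endothelial markers were higher after siFLI1 in TC-32 (3 of the 4 tested rose and 1 fell) and lower in A673 (4 of the 7 tested rose and 2 fell). Over all genes tested, 41.3% were called higher and 40.1% lower in TC-32, and 35.6% and 35.4% in A673. Several of the markers that rose had passed the filter through siFLI1 alone, so nothing is read from these counts. The part of these markers, and of CD34 and RGS5, in the KDR and FLT1 values was not tested.

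**Figure D3:**
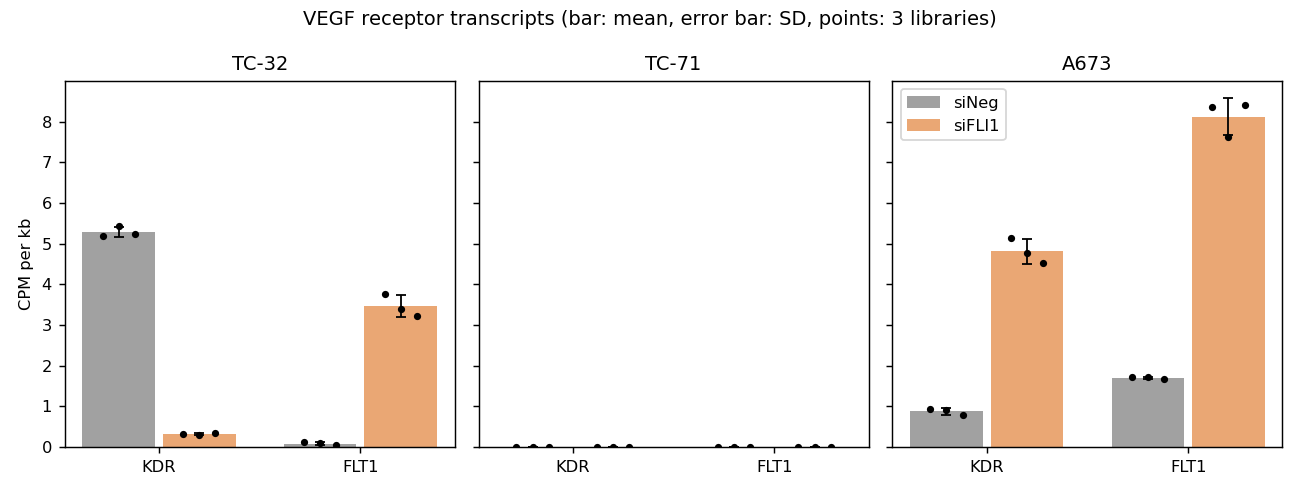
CPM per kilobase of KDR and FLT1 (vertical axis) in each of the 3 lines, with siNeg in grey, siFLI1 in orange, error bars of 1 SD and a point for each of 3 libraries. In TC-32 the KDR bar goes from 5.28 to 0.320 and the FLT1 bar from 0.0773 to 3.47, in A673 both rise, and the TC-71 bars lie at 0 on this scale.

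The sequences just upstream of the 2 receptor genes are shown because these genes moved apart in TC-32. Both are printed on the gene's strand (minus) from RefSeq promoters in GRCh38.p14, leaving out bases that lie in exons, at chr4:55125596-55125845 for KDR and chr13:28495146-28495378 for FLT1, with GGAA in capitals.
KDR promoter: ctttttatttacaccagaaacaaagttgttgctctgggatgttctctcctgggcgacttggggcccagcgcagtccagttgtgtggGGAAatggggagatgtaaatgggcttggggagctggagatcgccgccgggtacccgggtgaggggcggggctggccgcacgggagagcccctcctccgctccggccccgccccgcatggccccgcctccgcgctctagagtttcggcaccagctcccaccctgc
FLT1 promoter: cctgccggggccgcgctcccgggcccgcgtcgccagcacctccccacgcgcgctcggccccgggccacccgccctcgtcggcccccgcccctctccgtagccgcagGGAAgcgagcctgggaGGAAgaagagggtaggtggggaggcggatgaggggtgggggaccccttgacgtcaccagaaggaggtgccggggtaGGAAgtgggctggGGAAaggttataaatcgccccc
The KDR window of 300 bases holds 1 GGAA site and the FLT1 window 4, where the median over all promoters is 3.

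The neuropilins rose in all 3 lines, by 5.55-fold or more. NRP1 (ENSG00000099250.17, chromosome 10, 33177492 to 33336262), which binds VEGFA and SEMA3A, went in TC-32 from 12.9, 11.9 and 12.1 CPM to 183, 176 and 173 CPM. In TC-71 it went from 13.6, 14.9 and 15.5 CPM to 113, 119 and 120 CPM, and in A673 from 17.6, 18.4 and 17.0 CPM to 133, 129 and 128 CPM. No siFLI1 library came near the siNeg range in any line, and the 9 siNeg libraries lay between 11.9 and 18.4 CPM. The log2 fold change was 3.85 in TC-32 (SE 0.0589, edgeR adjusted p = 2.12e-25), 2.88 in A673 (0.0449, 9.78e-18) and 3.00 in TC-71 (0.0609, 1.60e-26). The TC-32 rise was larger than that in A673 by 1.00 (edgeR adjusted p = 1.11e-13) and than that in TC-71 by 0.84 (1.57e-10). A673 and TC-71 differed by -0.15 (95% interval -0.30 to 0.00019, edgeR adjusted p = 0.0891).

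NRP2 (ENSG00000118257.16, chromosome 2, 205681990 to 205798133), the partner of FLT4 for VEGFC and a receptor of SEMA3F, stood at 1.93, 1.39 and 1.60 CPM in TC-32 siNeg and 29.1, 30.4 and 31.0 CPM in siFLI1. In TC-71 it was 4.16, 3.14 and 3.47 CPM and then 17.1, 21.1 and 21.6 CPM, and in A673 2.69, 2.62 and 2.40 CPM and then 29.6, 29.8 and 29.0 CPM. The groups were widely separated in each line. The rise was 18.4-fold in TC-32 (log2 fold change 4.20, SE 0.110, edgeR adjusted p = 5.20e-21), 5.55-fold in TC-71 (2.47, SE 0.115, 1.41e-17) and 11.5-fold in A673 (3.52, SE 0.0603, 3.02e-17). All 3 differences between lines passed the threshold, the largest being 1.73 between TC-32 and TC-71 (edgeR adjusted p = 4.84e-10). NRP1, NRP2 and VEGFC were called higher in every line, as were 18.9% of the 14233 genes with a test in each. Genes on the other strand cover 4.87% of the exon bases of NRP1 and 1.06% of those of NRP2.

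**Figure D4:**
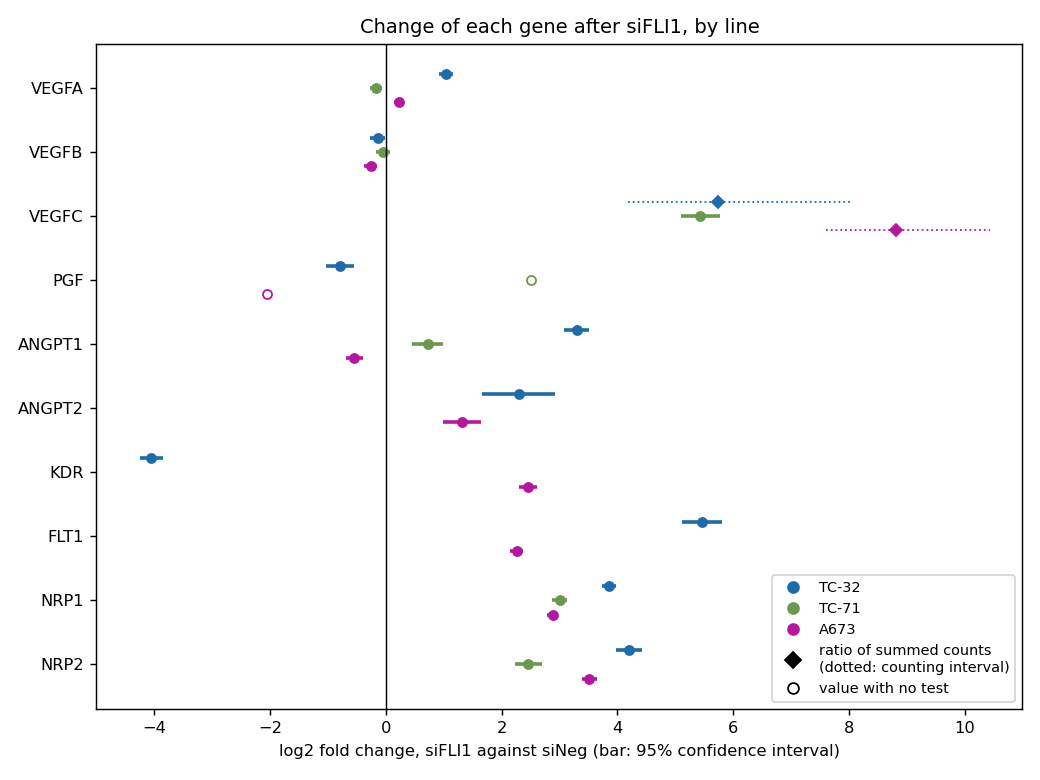
Log2 fold change of each gene after siFLI1 (horizontal axis) in the 3 lines, with 95% confidence intervals, open circles for PGF values given without a test, and diamonds with dotted counting intervals for VEGFC, where siNeg held at most 3 counts. NRP1 and NRP2 lie between 2.47 and 4.20 in every line, whereas KDR lies at -4.05 in TC-32 and 2.46 in A673.

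ANGPT1, the activating ligand of TEK, changed by a different amount in each line and fell in one. ANGPT1 (ENSG00000154188.9, chromosome 8, 107249482 to 107498055) rose in TC-32 from 5.74, 4.18 and 3.66 CPM to 47.4, 43.7 and 42.6 CPM, which is 9.84-fold (log2 fold change 3.30, SE 0.103, edgeR adjusted p = 3.62e-18). TC-71 showed a smaller rise without overlap, from 3.23, 3.55 and 3.57 CPM to 5.40, 5.55 and 6.09 CPM (0.73, SE 0.131, edgeR adjusted p = 1.41e-05). A673 had the highest siNeg level, at 10.4, 11.1 and 11.1 CPM, and lower siFLI1 levels of 8.29, 7.21 and 6.96 CPM (-0.54, SE 0.0704, edgeR adjusted p = 3.86e-06). The effect differed by 3.87 between TC-32 and A673 (edgeR adjusted p = 2.47e-23), by 2.56 between TC-32 and TC-71 (1.99e-14) and by -1.30 between A673 and TC-71 (8.31e-09).

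ANGPT2 (ENSG00000091879.13, chromosome 8, 6499632 to 6563409), the context-dependent antagonist of ANGPT1, was low throughout. Its TC-32 libraries rose from 0.209, 0.678 and 0.421 CPM to 2.34, 2.32 and 1.93 CPM (log2 fold change 2.30, SE 0.305, edgeR adjusted p = 2.17e-07). In TC-32 it passed the filter through siFLI1 alone, its siNeg libraries holding 5, 18 and 10 counts. The A673 libraries rose from 0.457, 0.590 and 0.489 CPM to 1.35, 1.24 and 1.25 CPM (1.32, SE 0.152, edgeR adjusted p = 9.07e-07). Neither line showed overlap, and at most 1 count was seen in any TC-71 library. The difference of 1.01 between TC-32 and A673 (edgeR adjusted p = 0.0164) was no longer past the threshold without TC-32 siNeg replicate 1 (0.69, edgeR adjusted p = 0.106). ANGPT2 lies within MCPH1 on the opposite strand and shares 9.69% of its exon bases with it, and whether counting used strand is not given in the sources used here. MCPH1 itself fell in TC-32 (log2 fold change -0.56), A673 (-0.25) and TC-71 (-0.47).

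Over the members other than PGF, 7 of 8 effects differed between TC-32 and A673, 4 of 5 between TC-32 and TC-71 and 4 of 5 between A673 and TC-71, where 62.1%, 53.6% and 51.6% of all genes tested did. VEGFC, and any pair in which a gene was at or under 3 counts in a group, were left out of these counts. The counts of genes called in both lines, given next, include VEGFC, which was called higher in every line. VEGFC reached the test through siFLI1 alone, as did FLT1 and ANGPT2 in TC-32. Called in opposite directions were KDR and ANGPT1 between TC-32 and A673 (2 of 8 called in both, beside 23.9% of all genes called in both), VEGFA between TC-32 and TC-71 (1 of 5, beside 14.2%), and VEGFA and ANGPT1 between A673 and TC-71 (2 of 5, beside 19.8%).

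Ranked per kilobase of canonical transcript within a group, VEGFB (22.3 ± 0.416 CPM) and VEGFA (16.6 ± 1.38) led in TC-32 siNeg (SD, n = 3). In TC-71 siNeg the same genes, at 23.6 ± 1.05 and 23.0 ± 1.38, overlapped in range. In A673 siNeg, PGF led at 64.3 ± 2.49, ahead of VEGFA at 25.4 ± 0.480. After siFLI1, NRP1 stood second in every line, at 31.5 ± 0.913 in TC-32, 23.1 ± 0.473 in A673 and 20.8 ± 0.601 in TC-71. Its range overlapped that of the next gene, VEGFA, in TC-71 alone. The lowest ranks after siFLI1 went to KDR in TC-32 (0.320 ± 0.0168) and in TC-71 (0 counts), and to ANGPT2 in A673 (0.243 ± 0.0122). The order depends on the length: by all exons VEGFB led in every group but A673 siNeg, where PGF (19.3 ± 0.745) stood ahead of VEGFB (16.5 ± 0.260) and VEGFA (6.35 ± 0.120). By that length VEGFB (21.7 ± 0.964) and VEGFA (5.74 ± 0.346) did not overlap in TC-71 siNeg, KDR (4.86 ± 0.114) stood above VEGFA (4.15 ± 0.344) in TC-32 siNeg, and NRP1 was again second after siFLI1 in each line.

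By rule, the genes whose pattern over the 18 libraries, centred on each line, was most like that of PGF were HOXD10 (Pearson r = 0.984), TMEM205 (0.975), SPACA6 (0.975), STAMBPL1 (0.973) and BASP1 (0.973), out of 12091 genes compared. The points share libraries and fall into the siRNA groups, so this is a description. The changes of these genes were smaller than those of PGF, with HOXD10 at -0.28 in TC-32, -0.55 in A673 and 0.75 in TC-71. By Spearman's rho, 2 of these 5 were again among the 5 most alike.

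Of 39 further genes of the system, listed by role, 37 were tested in A673 (28 higher, 6 lower), 32 in TC-32 (23 higher, 4 lower) and 30 in TC-71 (20 higher, 5 lower). The shares called over all genes tested were 71% (35.6% higher and 35.4% lower), 81.4% (41.3% and 40.1%) and 71.9% (36.8% and 35%). Their median log2 fold changes were 1.08, 0.74 and 0.97, beside -0.0066, 0.022 and 0.018 over all genes tested. In each line 4 of these genes passed the filter through siFLI1 alone, among them PLXNA4 (TC-32, A673), PDGFA (TC-32, TC-71) and THBS1 (TC-71). The filter favours a rise of such genes, so no excess over all genes is read from these counts or medians. VEGFD, TEK, TIE1, ANGPT4 and FLT4 complete the families. Of these 5, 2 were tested in TC-32 (1 higher, 1 lower), 3 in A673 (1 higher, 2 lower) and 2 in TC-71 (2 lower). The gene higher in A673 was TEK, which passed the filter there through siFLI1 alone. FLT4, the receptor of VEGFC, was lower in all 3 lines, going from 11.1 ± 0.924 to 1.80 ± 0.287 CPM in TC-32 (SD, n = 3 each). Its log2 fold change was -2.61 in TC-32 (edgeR adjusted p = 5.70e-15), -2.44 in A673 (5.56e-07) and -1.81 in TC-71 (4.36e-14). TC-71, with no KDR or FLT1 above 1 count, had 13.4 ± 0.374 CPM of FLT4 in siNeg and 3.88 ± 0.900 in siFLI1. FURIN, a protease that cleaves the VEGFC precursor, was higher in each line (0.71 in TC-32, 0.53 in A673 and 1.39 in TC-71). ADAMTS3, which cleaves VEGFC to its active form, was higher in A673 (3.98) and at too few counts to test in TC-32 and TC-71.

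Among 12 semaphorin and plexin genes, the ligands and signalling partners of the neuropilins, 10 of the 12 tested were higher in A673, 8 of 11 in TC-32 and 8 of 10 in TC-71, with 1, 1 and 0 lower. Of all genes tested, 35.6%, 41.3% and 36.8% were called higher. The counts of these genes include SEMA3C in TC-32, SEMA3E in A673 and PLXNA4 in both, which passed the filter through siFLI1 alone. A rise of those was built into being tested, so no excess over all genes is read from the counts. SEMA3B was higher in each line, by 2.86 in TC-32, 2.72 in A673 and 3.18 in TC-71 on the log2 scale. PLXNA2 was higher in TC-32 (2.06) and A673 (2.82) and had at most 1 count in TC-71, and PLXNA4 was higher in TC-32 (75.0-fold by summed counts, 95% exact interval 29.0 to 277) and A673 (5.33). SEMA3A, the repelling ligand of NRP1, was lower in TC-32 (-0.83) and higher in TC-71 (1.79) and A673 (1.66). SEMA3D was higher in TC-32 (0.47) and TC-71 (2.56) and lower in A673 (-0.97).

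Of 6 oxygen-sensing genes, 5 were higher and 1 lower in A673, and 3 were higher and 1 lower in each of TC-32 and TC-71. Calls were made for 71% of all genes tested in A673, 81.4% in TC-32 and 71.9% in TC-71, so nothing is read from these counts. EPAS1, which encodes HIF-2α and activates VEGFA under low oxygen, was higher in every line. It went from 70.9 ± 0.402 to 496 ± 16.6 CPM in TC-32, from 6.19 ± 0.488 to 52.3 ± 1.51 in A673 and from 31.6 ± 2.23 to 136 ± 6.75 in TC-71 (SD, n = 3 each; log2 fold changes 2.81, 3.08 and 2.10, edgeR adjusted p at most 8.88e-17). ARNT, the partner of HIF-2α, was higher in TC-32 (0.39) and lower in A673 (-0.33), and its TC-71 value missed the threshold (0.05). VHL, which marks HIF proteins for destruction, was lower in TC-71 (-0.25) and higher in A673 (0.22), and its TC-32 value missed the threshold (0.05). A gene on the other strand covers 23.5% of the exon bases of VHL. EGLN3, an oxygen sensor induced by HIF, was lower in TC-32 (-0.58) and higher in TC-71 (1.40) and A673 (1.29).

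Of 6 inhibitors of vessel growth, 6 were higher in TC-32, 4 of 6 in A673 and 4 of the 5 tested in TC-71, with 0, 0 and 1 lower. Among all genes tested in these lines, 41.3%, 35.6% and 36.8% were called higher and 40.1%, 35.4% and 35% lower. THBS2 in TC-32 and THBS1 in TC-71 passed the filter through siFLI1 alone, so their rise was built into being tested. THBS1, or thrombospondin-1, had the largest called change of them in each line among those whose mean log2 CPM was not under 0. It went from 3.77 ± 0.399 to 244 ± 7.07 CPM in TC-32, from 3.10 ± 0.179 to 141 ± 3.95 in A673 and from 0.252 ± 0.176 to 51.3 ± 2.47 in TC-71 (SD, n = 3 each; log2 fold changes 6.02, 5.51 and 7.57, edgeR adjusted p at most 9.61e-20). VASH1, or vasohibin-1, was higher in TC-32 (1.42) and lower in TC-71 (-0.26), and its A673 value missed the threshold (0.08), with 18.9% of its exon bases covered by genes on the other strand. VASH2, a relative of VASH1 that favours vessel growth and was left out of that count, was higher in TC-32 (1.53) and lower in A673 (-0.26), and its TC-71 value missed the threshold (0.29, edgeR adjusted p = 0.0506). Among 5 other growth factors, PDGFA was higher in TC-32 (3.98), TC-71 (65.4-fold by summed counts, 95% exact interval 11.4 to 2617) and A673 (3.10), and PDGFC was higher in each line (0.61, 1.72 and 1.08). PDGFB, which recruits pericytes, was higher in A673 (5.28) and at too few counts to test in TC-32 and TC-71. FGF2 was lower in TC-32 (-0.96) and higher in TC-71 (0.64) and A673 (0.23), and NUDT6 on the other strand covers 11.8% of its exon bases.

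**Figure D5:**
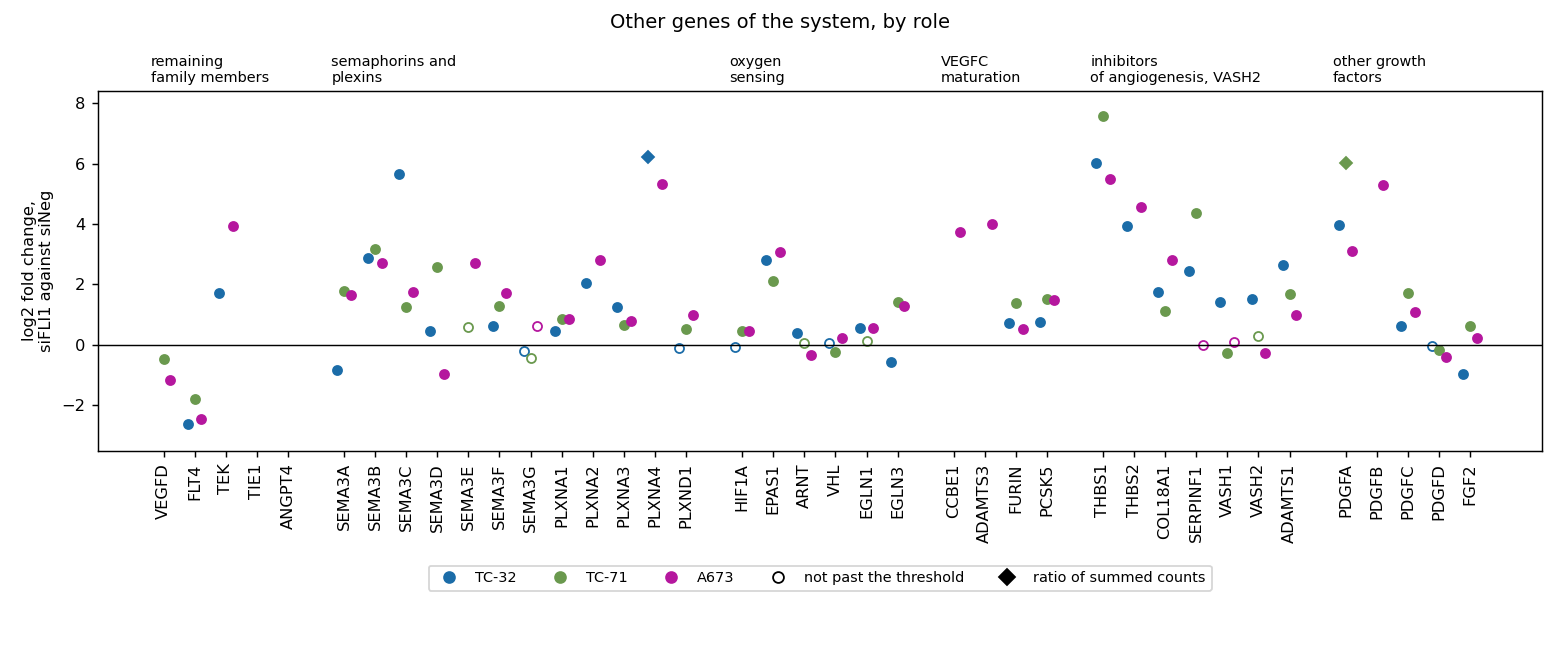
Log2 fold change after siFLI1 (vertical axis) of the 39 further genes, grouped by role along the horizontal axis and coloured by line, with open circles for values not past the threshold and diamonds for ratios of summed counts. THBS1 (5.51 to 7.57) and EPAS1 (2.10 to 3.08) lie above 0 and FLT4 (-2.61 to -1.81) below 0 in all 3 lines.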

How the data were processed

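Transcripts were measured by RNA sequencing with a stranded mRNA kit, per the labels' protocols. The authors deposited expected counts for TC-32 and A673, which the table names attribute to RSEM, and counts for TC-71, attributed to Subread. The submitters' processing notes name cutadapt 4.4, STAR 2.7.3, featureCounts, Subread 2.0.3, limma 3.38.3 and GRCh38/hg38, with no role for each. The annotation release and strand setting are not given in the sources used here. The line of the TC-32 and TC-71 columns rests on the name of the table. Each table has 58381 rows, none pooled, and 0 library columns were left out. Total counts per library set the precision.

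Expected counts were rounded. Each line had its own fit in edgeR 4.0.16 under R 4.3.3 (filterByExpr with 10 counts at the median library size in 3 libraries, TMM, robust quasi-likelihood F-test), with Benjamini-Hochberg adjustment over all genes tested and calls at an adjusted p under 0.05. All adjusted p given are from edgeR by this procedure. Differences between lines were interaction contrasts in one model of 18 libraries. The fits were also run on simulated data with far fewer changed genes and a fixed spread. Those settings differ from these data, so that run does not test the calls given here. Levels per kilobase used the Ensembl canonical transcript of GENCODE release 44, where 57754 identifiers were found, and gene coordinates are from it. For a group with 1 to 3 counts per library, a ratio of depth-scaled summed counts is given with an exact (Clopper-Pearson) interval. No molecular identifiers are stated, so intervals and floors cover counting error only. RefSeq promoters (GRCh38.p14) held VEGFB, VEGFC, PGF, KDR, FLT1 and NRP2. Scripts used Python 3.11.15.

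The members, the lists of further genes and the tests were chosen with earlier results of these data known. All members are named. Of the further genes, those named are the gene of each role with the largest called change in each line (mean log2 CPM of at least 0) and those called in opposite directions in different lines. VEGFD is listed under its older symbol FIGF. The settings changed in turn were the scaling (RLE or library size alone), the low-count filter (none, or a mean of at least 10 counts), the tool (DESeq2 1.42.0 or limma-voom from limma 3.58.1), rounding, a block on the replicate number, the libraries used (each left out in turn), for differences between lines the 12 libraries of the lines compared, and, for shares, the length of all exons, which was added after seeing the data.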

Additional observations from a re-analysis of the deposited data

Results flagged for a closer look

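These differences between lines in the effect of siFLI1 passed the threshold in edgeR's interaction test, each given as the log2 fold change of the first line minus that of the second. KDR had the widest, at -6.49 between TC-32 and A673. ANGPT1 had 3.87 between TC-32 and A673, 2.56 for TC-32 against TC-71 and -1.30 for A673 against TC-71. FLT1 had 3.24 between TC-32 and A673, and ANGPT2 had 1.01 for the same pair. VEGFA had 0.83 between TC-32 and A673, 1.21 for TC-32 against TC-71 and 0.37 for A673 against TC-71. NRP2 had 0.72, 1.73 and 1.02 for those pairs. NRP1 had 1.00 between TC-32 and A673 and 0.84 between TC-32 and TC-71. VEGFB had -0.25 between A673 and TC-71 (edgeR adjusted p = 0.00939).

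PGF lay in opposite directions in every library of the lines compared, with a difference of -3.30 between TC-32 and TC-71 and of -4.59 between A673 and TC-71. These differences were not tested, since the direction of PGF entered the choice of genes.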

How the results depend on the processing

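Over the alternatives, 772 of 784 values for 46 gene-level results kept their direction and side of the threshold, none reversed, and 15 counts stayed within 1.5 times the value given under every alternative run. The 784 include PGF in A673 and TC-71 and its differences between lines, which rest on values used to choose the genes. Their stability is therefore no support for the PGF pattern. Members called stayed at 5 in TC-71 and 9 in A673 and ranged from 8 to 9 in TC-32. Besides the changes already given for VEGFB in TC-32 and ANGPT2, the VEGFB difference between TC-32 and A673 (0.15) passed the threshold with library size alone (0.27), a mean of at least 10 counts (0.18) and without TC-32 siFLI1 replicate 3 (0.20). The VEGFB difference between A673 and TC-71 no longer passed with no low-count filter (-0.21, edgeR adjusted p = 0.0529) or with only the 12 libraries of those lines (-0.17, 0.0667). The NRP1 difference between A673 and TC-71 passed with library size alone (-0.21) and without TC-71 siNeg replicate 3, TC-71 siFLI1 replicate 1 or A673 siNeg replicate 3 (-0.21 to -0.19). The cause of these changes was not tested. With no low-count filter adjusted p-values were far smaller for some genes, FLT1 and ANGPT2 in TC-32 among them.

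Deviations of same-numbered siNeg and siFLI1 libraries correlated at -0.205 to 0.0531, and those of differently numbered ones at -0.134 to 0.179. Whether the numbers pair the libraries is not stated, and 3 libraries per group are too few for these correlations to settle it. With the replicate number as a block, the genes called were 13053 (TC-32), 12467 (A673) and 12048 (TC-71), and the members called were 8, 9 and 5 as without the block. With 3 libraries per group and at most 37234528 counts in TC-32 and TC-71, KDR, FLT1 and ANGPT2 could not be measured in TC-71.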

Other observations

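The nearest protein-coding neighbours of the 10 genes were read from the same fits, and those named here were singled out after their values were seen. ITGB1, the integrin beta-1 gene, and PARD3, a cell polarity gene, flank NRP1 and were higher in all 3 lines, as NRP1 was. So were 18.9% of the 14233 genes tested in all 3. The log2 fold change of ITGB1 was 1.11 in TC-32, 1.28 in A673 and 1.16 in TC-71, and that of PARD3 was 0.38, 0.62 and 1.04. PARD3B, a neighbour of NRP2, was also higher in every line (1.39, 0.44 and 1.46 in the same order). KIT, a receptor tyrosine kinase gene 337698 bases from KDR, was lower in TC-32 (-0.78) and higher in A673 (1.93), the directions of KDR, and lower in TC-71 (-0.75), where KDR had 0 counts. RSPO2, a WNT signal enhancer next to ANGPT1, was higher in TC-71 (0.58, edgeR adjusted p = 0.0299) and lower in A673 (-1.63), as ANGPT1 was, and held at most 1 count per siNeg library in TC-32. Other neighbours went against the member beside them: NEIL3, a DNA repair gene next to VEGFC, was lower in every line (-3.28, -1.15 and -2.19), and PAN3, next to FLT1, was lower in A673 (-0.80). MRPS18A and MRPL14 beside VEGFA (-0.76 and -1.10) and POMP beside FLT1 (-0.62) were lower in TC-32. AGPAT5 beside ANGPT2 was lower in TC-32 (-1.98) and A673 (-0.23). SRD5A3 beside KDR (-0.80) and INO80D beside NRP2 (-0.14) were lower in A673. Neither list is complete: RPS6KL1 and EIF2B2 beside PGF in TC-32, and DNAJC4 and FKBP2 beside VEGFB in A673, were also lower, as the member was. The share of all genes lower in every line is not given. Whether position plays a part was not tested.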
